A study of Mus musculus with 3 samples.

Results

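The 10 genes described here are regulators of mRNA decay through AU-rich elements and related cytokine mRNA elements: Zfp36, Zfp36l1, Zfp36l2, Zc3h12a, Rc3h1, Rc3h2, Hnrnpd, Khsrp, Elavl1 and Tia1. They were chosen by name and not by a threshold on a measured value, and all 10 were found among the 55536 genes of the tables. The study sequenced ribosome-depleted total RNA from the cytosolic fraction of primary bone marrow-derived macrophages of C57BL/6J mice. Every library came from cells given 100 ng/ml Lipid A, the part of bacterial lipopolysaccharide that Toll-like receptor 4 recognises, for 30 min. There was 1 group of 3 libraries, labelled as biological replicates of the same donor record, with sex and age not collected. Untreated cells, other times and a nuclear fraction were not analysed here, so a level below is the level after treatment and says nothing of how far a gene was induced. Whether the replicates were separate cultures was not stated, and the tests measure the spread between these libraries.

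Many short-lived mRNAs that encode cytokines carry AU-rich elements, runs of ATTTA in their 3' untranslated region (UTR), and proteins that bind there set how long the mRNA lasts. Zfp36 encodes tristetraprolin (TTP), which binds the element through a pair of zinc fingers and brings in deadenylases, and Zfp36l1 and Zfp36l2 are its paralogs. Zc3h12a encodes Regnase-1, an endoribonuclease that cuts stem-loops of cytokine mRNAs, and Rc3h1 and Rc3h2 encode Roquin-1 and Roquin-2, which bind stem-loops and also recruit deadenylases. Hnrnpd (AUF1) and Khsrp (KSRP) encode further binders of AU-rich elements that are linked mainly to decay, Elavl1 (HuR) encodes a binder linked mainly to stabilisation, and Tia1 encodes a binder linked to silenced translation. In macrophages, TTP is known for limiting Tnf, and its own mRNA is among its targets.

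CCCH zinc fingers of the TTP and Roquin genes can be read in their coding sequence. Each stretch below is the first CCCH zinc finger of its gene, 60 bases of coding sequence with the codons of the 3 cysteines and the histidine in capitals, in mm10 coordinates.
Zfp36, chr7:28378158-28378217, minus strand: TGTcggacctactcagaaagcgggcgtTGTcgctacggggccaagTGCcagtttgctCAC
Zfp36l1, chr12:80110189-80110248, minus strand: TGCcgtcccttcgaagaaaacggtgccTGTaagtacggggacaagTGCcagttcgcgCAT
Zfp36l2, chr17:84186668-84186727, minus strand: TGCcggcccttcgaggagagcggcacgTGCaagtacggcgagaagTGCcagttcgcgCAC
Rc3h1, chr1:160950255-160950314, plus strand: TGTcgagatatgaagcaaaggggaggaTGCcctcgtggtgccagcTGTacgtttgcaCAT
Rc3h2, chr2:37398264-37398323, minus strand: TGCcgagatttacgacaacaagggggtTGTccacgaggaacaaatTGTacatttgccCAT
All 5 genes had the same spacing, 8, 5 and 3 codons between the capitals. The search allowed 7 to 9, 4 to 6 and 3 codons, and Zc3h12a had no match within those limits. Zfp36, Zfp36l1 and Zfp36l2 each had a further finger of the same spacing. Over the first finger, Zfp36 shared 70.0% of bases with Zfp36l1 and 66.7% with Zfp36l2, and Zfp36l1 shared 81.7% with Zfp36l2. Over the other finger the identities were 66.7% for Zfp36 with Zfp36l1, 75.0% for Zfp36 with Zfp36l2 and 90.0% for Zfp36l1 with Zfp36l2. Despite this likeness the gene counts of the members carried little uncertainty in the authors' estimates. The deposited posterior SD of the gene count was at most 1.03 for 9 members, and up to 84.1 for Zfp36l1. The antisense lincRNA gene Gm26669 overlaps Zfp36l1 over 4967 bases, and the part of this overlap in that SD was not tested.

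The libraries held 23403552, 50435201 and 35785896 expected counts in replicates 1, 2 and 3. All 12 macrophage markers stood at 10 TPM or more, led by Lyz2 and Cd68 with means of 5224 and 742 TPM, and of 12 lymphocyte markers only Cd4 reached 1 TPM. The libraries differed in other RNAs. The 12 stromal markers, led by Col1a1 and Col1a2, summed to 344 CPM, counts scaled to library size, in replicate 1, 2.44 in replicate 2 and 2.68 in replicate 3. The nuclear RNAs Malat1 and Neat1, with 4 others, summed to 4538, 1440 and 7345 CPM. The 11 neutrophil markers, led by S100a9 and Csf3r, summed to 91.0, 85.4 and 103 CPM. Most of this was Csf3r, at 80.6, 62.7 and 77.5 CPM, while S100a9 had 4.03, 10.2 and 10.3 CPM. Of the 6 neutrophil markers with at least 10 counts on average, 1 was highest in replicate 1 and 4 in replicate 3. Their median deviation from the gene's own mean was -0.78, 0.05 and 0.55 on the log2 scale. Nuclear protein-coding genes held 22.3%, 34.4% and 24.3% of the TPM, the unit of level corrected for transcript length, so a TPM value moves between libraries with the abundance of other RNAs. Levels of different genes are therefore compared in TPM within a library, and 1 gene is compared between libraries in CPM scaled by the trimmed mean of M values (TMM).

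All 10 regulators were detected in all 3 libraries, and their median level stood above that of the genes tested. The median of log2(TPM + 1) over the 10 members was 4.31 ± 0.22 (SD, n = 3), against 2.43 ± 0.27 over the 13237 genes that had at least 10 counts on average. Of the members, 10 reached a mean of 1 TPM, 7 reached 10 TPM and 2 reached 100 TPM. Tia1, with a mean log2(TPM + 1) of 2.04, lay below the median of the genes tested. Rc3h2 and Rc3h1 ranked 4375th and 4621st of the 9403 nuclear protein-coding genes with a mean of 1 TPM or more. Zfp36 alone held 66.7% ± 3.32 of the summed TPM of the 10 members.

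**Figure D1:**
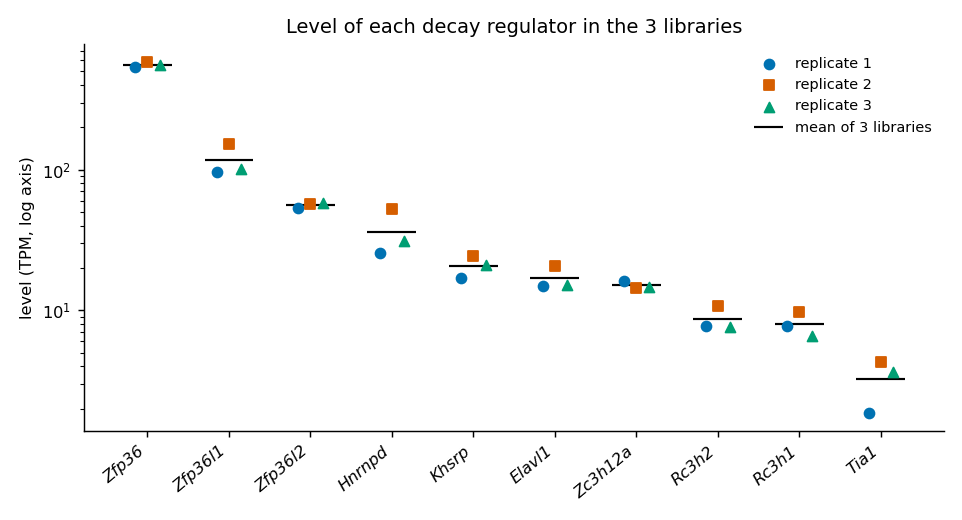
TPM of each decay regulator (log axis) in replicates 1, 2 and 3 (points), with the mean as a line, ordered by mean. Zfp36 stands at 534 to 587 TPM in every library, and Tia1 at 1.85 to 4.26 TPM.

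Among the TTP family, Zfp36 was by far the highest member. Zfp36 (ENSMUSG00000044786.6, chr7:28376784-28380253, minus strand) had 534, 587 and 554 TPM in replicates 1, 2 and 3, with a mean of 558 ± 26.5 TPM (SD, n = 3). It ranked 47th of the 9403 nuclear protein-coding genes with a mean of 1 TPM or more. Its counts were 59951, 109249 and 85445, so counting error is small. Zfp36l1 (chr12:80107754-80113013, minus strand) had 96.6, 153 and 100.3 TPM, with a mean of 117 ± 31.6, and ranked 337th. Replicate 2 was its high library in TPM. Zfp36l2 (chr17:84183931-84187947, minus strand) had 53.6, 56.6 and 57.6 TPM, with a mean of 55.9 ± 2.07, and ranked 721st. Rescaled to nuclear protein-coding genes the picture turned round, with 433, 446 and 413 TPM for Zfp36l1 and 240, 165 and 237 TPM for Zfp36l2. Zfp36 had 2394, 1708 and 2281 TPM on that scale, lowest in replicate 2, where its TPM before rescaling was highest. In the second of the authors' transcript tables Zfp36 had 191, 337 and 124 TPM, so its narrow spread depends on the scale used.

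The order Zfp36, Zfp36l1, Zfp36l2 held in each library, with no overlap between the genes. In log2(TPM + 1), Zfp36 exceeded Zfp36l1 by 2.28 ± 0.30 and Zfp36l1 exceeded Zfp36l2 by 1.02 ± 0.35 (SD, n = 3 libraries). Both differences were positive in 3 of 3 libraries, and the exact permutation test over signs gave a two-sided p of 0.25, the smallest that 3 libraries allow. Within the family, Zfp36 took 78.1%, 73.7% and 77.8% of the TPM in replicates 1, 2 and 3, a mean of 76.5% ± 2.47. Zfp36l1 took 15.8% ± 2.96 and Zfp36l2 took 7.68% ± 0.505. The TPM ratio of Zfp36 to Zfp36l2 was 9.97, 10.4 and 9.62, tighter than its ratio to Zfp36l1, which was 5.53, 3.83 and 5.52.

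The Regnase and Roquin genes were present at far lower levels. Zc3h12a (chr4:125118423-125127840, minus strand) had 16.0, 14.5 and 14.7 TPM, with a mean of 15.1 ± 0.834 (SD, n = 3), and ranked 2805th. Zfp36 stood 33.4, 40.5 and 37.7 times above it in TPM in the 3 libraries. Rc3h2 (chr2:37370069-37422903, minus strand) had 7.73, 10.7 and 7.58 TPM, with a mean of 8.67 ± 1.75. Rc3h1 (chr1:160906418-160974978, plus strand) had 7.75, 9.65 and 6.54 TPM, with a mean of 7.98 ± 1.57. The Roquin genes could not be put in order. Rc3h2 exceeded Rc3h1 by 0.11 ± 0.10 in log2(TPM + 1), in 2 of 3 libraries (exact permutation p = 0.5), and Rc3h1 held 47.9% ± 1.92 of their joint TPM. Zc3h12a exceeded Rc3h2 by 0.75 ± 0.30 in log2(TPM + 1), in 3 of 3 libraries.

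The 4 remaining members covered a wider range. Hnrnpd (chr5:99955935-99978938, minus strand) had 25.5, 52.3 and 31.1 TPM, with a mean of 36.3 ± 14.1 (SD, n = 3), and ranked 1163rd. Khsrp (chr17:57021051-57031522, minus strand) had 17.0, 24.5 and 20.9 TPM, with a mean of 20.8 ± 3.75. Both were highest in replicate 2, the library in which protein-coding genes took the largest share of TPM. Elavl1 (chr8:4285382-4325413, minus strand) had 14.8, 20.7 and 15.2 TPM, with a mean of 16.9 ± 3.32. The stabiliser Elavl1 and the endoribonuclease gene Zc3h12a were not separable, at a difference of 0.14 ± 0.31 in log2(TPM + 1), positive in 2 of 3 libraries (exact permutation p = 0.75). Tia1 (chr6:86404219-86433405, plus strand) was the lowest member, with 1.85, 4.26 and 3.61 TPM, a mean of 3.24 ± 1.25 and rank 7250. It rested on 246, 628 and 480 counts, against 1336 or more for every other member in every library. The other neighbours in the order, Zfp36l2 over Hnrnpd, Hnrnpd over Khsrp, Khsrp over Elavl1 and Rc3h1 over Tia1, kept their sign in 3 of 3 libraries by more than 1 SD (exact permutation p = 0.25 each).

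Between libraries the regulators differed by small factors. With TMM-scaled CPM, the ratio of the highest to the lowest library ran from 1.10 for Elavl1 to 1.60 for Zc3h12a. The median ratio over all tested genes, 1.27, lay inside that range. A chi-square test of the counts against counting error, with Benjamini-Hochberg adjustment over 13237 genes, called 10 of 10 members, beside 67.9% of all genes tested. All 10 members passed the filter of a mean count of 10. Because counting error is small for well-covered genes, that call is reached by small differences. By size, 1 of 10 members reached a 1.5-fold ratio, beside 27.2% of all genes. The count of 10 fell to 9, 7 and 7 without replicates 1, 2 and 3, while the share of all genes called fell to 56.7%, 33.4% and 53.0%. Elavl1 lost the call without replicate 1 and without replicate 2 (adjusted p = 0.22 and 0.193, chi-square test with Benjamini-Hochberg adjustment), and in the second of the authors' transcript tables (adjusted p = 0.31). Zfp36l2 and Hnrnpd also lost it without replicate 2 (adjusted p = 0.172 and 0.0579), and Rc3h2, Khsrp and Tia1 without replicate 3 (adjusted p = 0.169, 0.983 and 0.33). The biological coefficient of variation estimated by edgeR had a median of 12.7% over the members, against 17.5% over all tested genes. The members also had a higher median level than the tested genes, and the part of level in this difference was not tested.

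**Figure D2:**
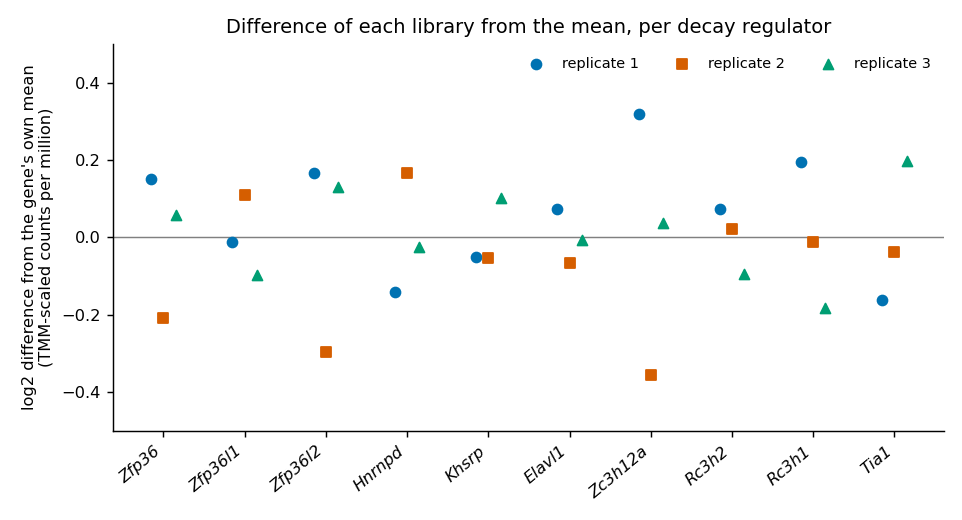
Difference of each library from the gene's own mean (log2 TMM-scaled CPM) for the 10 decay regulators, 1 point per replicate. Replicate 2 is the low library for Zfp36, Zfp36l2 and Zc3h12a, and Zc3h12a has the widest spread, with a highest-to-lowest ratio of 1.60.

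The library with the highest value was not the same for all members. Zc3h12a had 81.4, 51.0 and 67.0 CPM in replicates 1, 2 and 3 (adjusted p = 3.92e-55, chi-square test with Benjamini-Hochberg adjustment). Zfp36 had 2626, 2047 and 2465 CPM, a ratio of 1.28. Zfp36l2 had 361, 262 and 352 CPM, a ratio of 1.38. These 3 genes were highest in replicate 1 and lowest in replicate 2, as was Elavl1 over a smaller range. The 1.60-fold ratio of Zc3h12a rested on both ends of that order, and was 1.31 without replicate 1, 1.22 without replicate 2 and 1.60 without replicate 3.

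Zfp36l1 and Hnrnpd ran the other way, highest in replicate 2. Zfp36l1 had 545, 592 and 513 CPM and Hnrnpd had 58.5, 72.5 and 63.4 CPM. Khsrp, with 128.4, 128.3 and 143 CPM, and Tia1, with 10.8, 11.8 and 13.8 CPM, were highest in replicate 3. The Roquin genes were both highest in replicate 1 and lowest in replicate 3, at 167, 145 and 129 CPM for Rc3h1 and 132, 128 and 118 CPM for Rc3h2. Elavl1 had 68.7, 62.4 and 65.0 CPM, the smallest ratio of the 10 members.

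In all, 6 members were highest in replicate 1, 2 in replicate 2 and 2 in replicate 3, while 26.2%, 44.3% and 29.5% of all tested genes were. The median deviation of the members from their own mean was 0.07, -0.04 and 0.01 on the log2 scale, against -0.02, 0.03 and -0.01 over all tested genes. In the second transcript table the members' values for replicates 2 and 3 had the opposite sign. Stromal markers, highest in replicate 1 in 12 of 12 cases, and nuclear RNAs, lowest in replicate 2, moved with these libraries, and their part in the differences was not tested. In RNA from a cell population, fewer cells that express a gene and less RNA per cell cannot be told apart.

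The authors deposited 2 transcript tables, of which the first goes with the gene table and is used unless the second is named. They split Zfp36 between 2 annotated transcripts of different structure. Zfp36-201 has 2 exons, 2790 bases and a coding sequence of 957 bases. Zfp36-202 has 1 exon of 2465 bases that runs through the 680-base intron of Zfp36-201 and has an annotated coding sequence of 921 bases, 12 codons shorter. The ends of that intron are shown because they mark what the transcripts share and what only Zfp36-202 keeps. Each stretch spans a boundary, with the first and last intron bases in capitals.
Zfp36 exon to intron, chr7:28379159-28379188, minus strand: tctgccatctacgagGTgagtacctgttag
Zfp36 intron to exon, chr7:28378479-28378508, minus strand: ccctgttcctctcAGagcctccagtcgatg
Zfp36-202 took 47.6%, 22.3% and 51.0% of the Zfp36 TPM in replicates 1, 2 and 3, a mean of 40.3% ± 15.7 (SD, n = 3). In the second transcript table its share was 35.7%, 11.3% and 38.4%, lower in every library but in the same order. Replicate 2 stood apart in both tables. The expected counts of Zfp36-202 were 26542, 21926 and 40680, with deposited posterior SDs of 378, 568 and 442, which cover the assignment of reads within a library and not the spread between libraries.

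The share that keeps the intron was lowest where nuclear RNA was lowest. Malat1, a nuclear long non-coding RNA, had 3826, 1284 and 6469 CPM in replicates 1, 2 and 3, in the same order as the Zfp36-202 share. Among the 1736 expressed protein-coding genes with a mean share of 1% or more in transcripts that contain a whole intron of the principal transcript, the median share was 3.48%, 1.76% and 3.95%, and 66.0% of these genes were lowest in replicate 2. Zfp36 stood far above that median, and 173 genes of 3088 with any such transcript had a mean share of 20% or more. Among those 173 genes, which are nearer to Zfp36 in this measure, the median share was 36.7%, 31.4% and 34.7%, and 42.8% were lowest in replicate 2 (36.1% of 194 such genes in the second table). Of the 20 expressed target mRNAs listed below that are not members, 10 had a transcript of that kind, and 9 of those 10 were lowest in replicate 2. Cxcl2 had 8.66%, 4.16% and 14.5%, and Dusp1 had 6.36%, 2.96% and 10.2%. The exception was Lcn2, at 3.61%, 1.60% and 0%. The part of nuclear RNA in the Zfp36-202 share was not tested.

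The split also rests on where Zfp36 transcription is annotated to start. Zfp36-201 begins 998 bases upstream of Zfp36-202, while the RefSeq start of the gene in GRCm38.p6 lies 1025 bases inside the 1080-base first exon of Zfp36-201. Reads outside the intron and downstream of that point fit both transcripts, unless they cross the exon junction of Zfp36-201. Coverage per base was not analysed here.

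**Figure D3:**
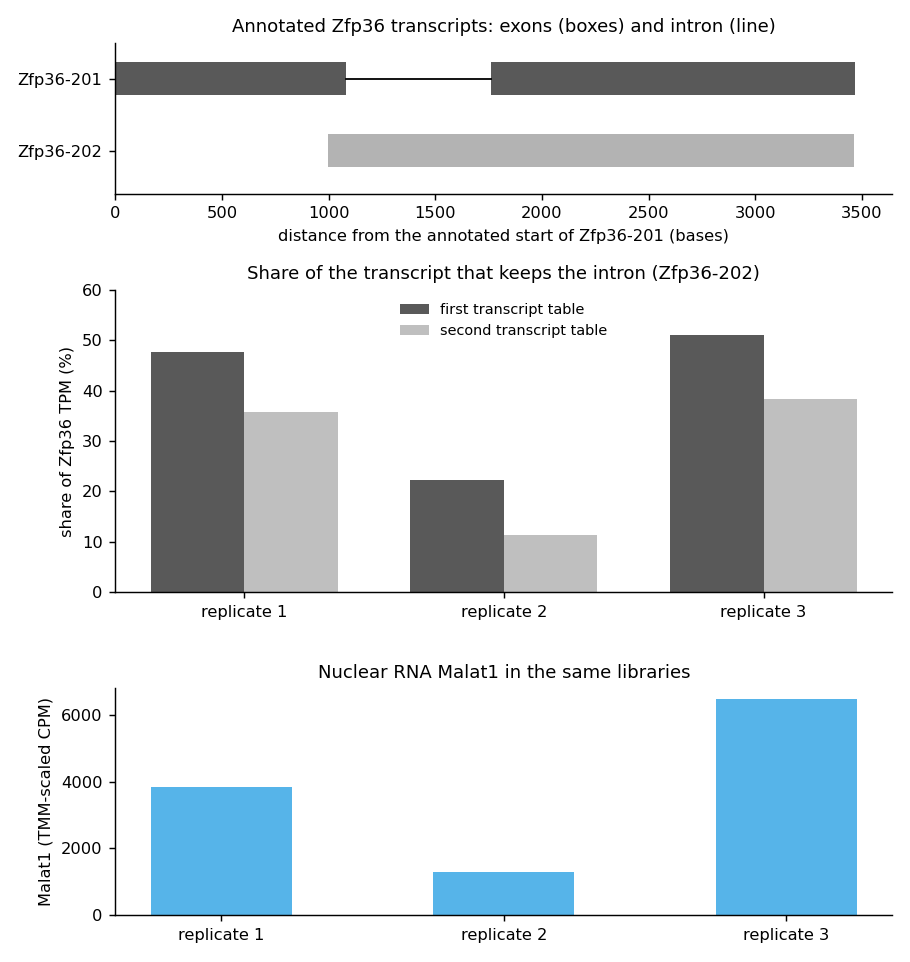
Top, the exons of both annotated Zfp36 transcripts by distance from the Zfp36-201 start (bases); middle, the share of Zfp36 TPM given to Zfp36-202 in replicates 1, 2 and 3 in both transcript tables (bars, %); bottom, TMM-scaled CPM of Malat1. Replicate 2 has the lowest share in both tables (22.3% and 11.3%) and the lowest Malat1 (1284 CPM).

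For other members the transcript shares ranged from a single form to several. Zfp36l2 has 1 annotated transcript, Zfp36l1-201 held 99.9% ± 0.123 of its gene's TPM, and Zc3h12a-201 and Khsrp-201 held 98.0% ± 1.27 and 97.0% ± 1.33 (SD, n = 3). Elavl1-204, with a transcript of 2317 bases, held 73.4% ± 2.67, and Elavl1-201, with 5743 bases and the same 978-base coding sequence, held 11.6% ± 1.85. Most of the Elavl1 TPM was thus assigned to the shorter form, and the second table gave 72.8% and 7.72%. Elavl1-203, a 613-base transcript annotated as a retained intron without coding sequence, held 14.8% ± 2.24. That share rested on 44, 92 and 47 expected counts in replicates 1, 2 and 3.

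The Roquin transcripts depended on the table. Rc3h1-202 held 98.5% ± 0.406 in the first transcript table and 75.2% ± 9.05 in the second, which gave 24.5% to Rc3h1-201. Rc3h2-201 held 70.6% ± 4.67 in the first and 34.3% ± 13.2 in the second, in which Rc3h2-202 led with 46.1% ± 4.59 and Rc3h2-203 had 15.9% ± 10.7. No leading Rc3h2 transcript can therefore be named from these tables.

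Hnrnpd produces AUF1 protein forms that differ by exons 2 and 7, both coding and both multiples of 3 bases, and Tia1 has a short alternative exon of the same kind. These exons are shown because the transcripts of both genes differ by them.
Hnrnpd exon 2, chr5:99976534-99976590, minus strand: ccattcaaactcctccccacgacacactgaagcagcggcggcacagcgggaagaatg
Hnrnpd exon 7, chr5:99963731-99963877, minus strand: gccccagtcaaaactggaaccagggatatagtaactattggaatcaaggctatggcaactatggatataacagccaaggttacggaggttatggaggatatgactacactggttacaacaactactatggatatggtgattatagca
Tia1 exon 5, chr6:86419101-86419133, plus strand: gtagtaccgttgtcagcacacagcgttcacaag
Of the Hnrnpd TPM in transcripts that span the position, exon 2 (57 bases) was included in 38.5%, 48.7% and 43.3% in replicates 1, 2 and 3, a mean of 43.5% ± 5.09. Exon 7 (147 bases) was included in 52.2%, 46.8% and 44.0%, a mean of 47.7% ± 4.15. Forms with and without each exon were thus both assigned in every library, and the second table gave means of 48.5% and 53.8%. The percentages count every annotated transcript that spans the exon, so they are not shares of AUF1 protein forms. In the first table, most TPM with exon 2 came from the 493-base Hnrnpd-210, which rested on 70, 270 and 119 expected counts. Most TPM without exon 7 came from Hnrnpd-208, annotated as a substrate of nonsense-mediated decay. Tia1 exon 5 (33 bases) was included in 67.5%, 59.0% and 56.5%, a mean of 61.0% ± 5.74, but in 41.0% ± 6.47 in the second table.

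By transcript, Hnrnpd-203 held 33.6% ± 3.83 and Hnrnpd-208, annotated as a substrate of nonsense-mediated decay, held 33.5% ± 3.40 (20.6% ± 5.73 in the second table). Hnrnpd-210, a 493-base transcript with an incomplete coding sequence, held 23.4% ± 3.16. That share rested on 70, 270 and 119 expected counts, of 1336, 3868 and 2199 for the gene. Hnrnpd-202 held 3.38% ± 1.44, against 5.66% in the second table. Of the Tia1 TPM, protein-coding transcripts held 49.9% ± 14.0, Tia1-202 leading with 32.1% ± 12.2 and Tia1-201 with 17.4% ± 2.12. The 612-base non-coding Tia1-214 held 31.0% ± 12.7, on 5.55, 49.06 and 32.1 expected counts in replicates 1, 2 and 3. TPM divides counts by length, so a short transcript can hold a large share of TPM on few counts.

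**Figure D4:**
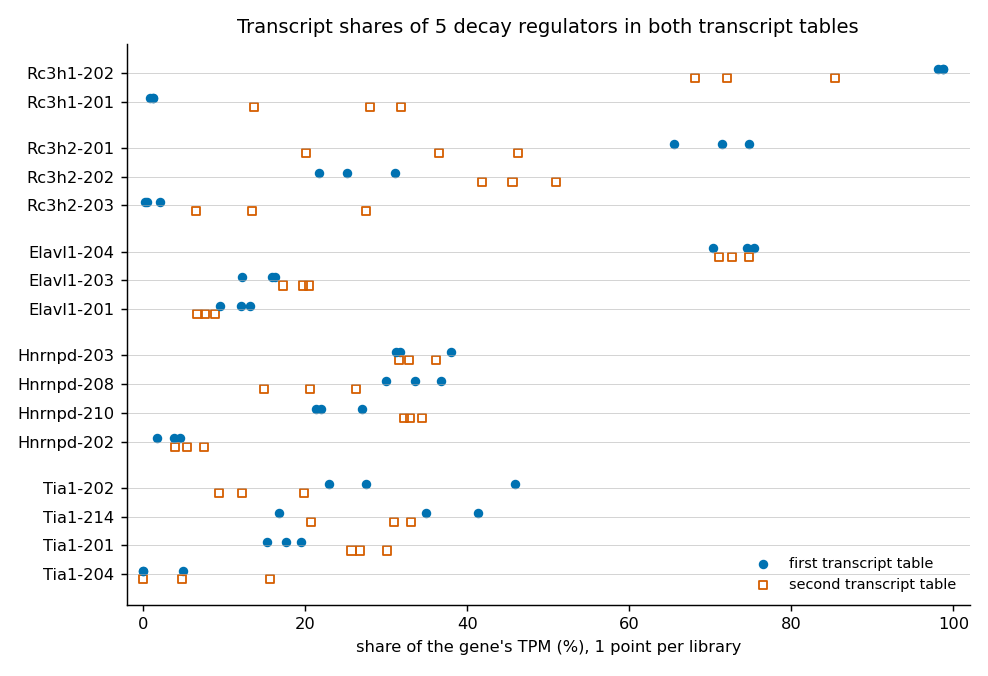
Share of each gene's TPM (%) given to the annotated transcripts of 5 decay regulators, 1 point per library, in the first (filled) and second (open) transcript tables. Elavl1 shares lie close in both tables, while Rc3h2-201 has means of 70.6% and 34.3%.

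Several regulators carry in their own 3' UTR the elements that the TTP family binds. In the annotated 3' UTR of the leading protein-coding transcript, read on the transcript strand with overlaps allowed, ATTTA was found in 9 of 10 members, TATTTAT in 6 and TTATTTATT in 5. Among 9322 expressed protein-coding genes these shares were 66.0%, 27.2% and 6.96%. UTR length differs, with a median of 1732 bases in members and 935 bases over all these genes, and a longer UTR holds more matches by length alone. The TTATTTATT members were Zfp36, Zfp36l1, Zfp36l2, Rc3h1 and Rc3h2, the last read in Rc3h2-201, which leads in the first table only. Hnrnpd was the member with no ATTTA, in a 366-base UTR of Hnrnpd-203. Below are the 30-base stretches with the most ATTTA (capitals) in selected members, and in 3 target mRNAs.
Zfp36, chr7:28376961-28376990, minus strand: ggccctttATTTAtgacgactttATTTAtt
Zfp36l1, chr12:80108434-80108463, minus strand: aagcttATTTAacttatcaaaacgtATTTA
Zfp36l2, chr17:84184924-84184953, minus strand: caatatgaaaaactATTTAacttATTTAtt
Rc3h2, chr2:37373429-37373458, minus strand: tcagtatggaagatcttacacATTTATTTA
Tnf, chr17:35199679-35199708, minus strand: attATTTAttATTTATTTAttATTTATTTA
Cxcl2, chr5:90905327-90905356, plus strand: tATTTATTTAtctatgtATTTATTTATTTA
Dusp1, chr17:26506167-26506196, minus strand: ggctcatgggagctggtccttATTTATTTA
The Tnf and Cxcl2 windows held 5 copies each, that of Dusp1 held 2, and those of the 4 members held 2 each. A match is a description of the letters and not evidence of binding.

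The known targets of these regulators had the highest median of the related gene lists, 5.74 ± 0.40 in log2(TPM + 1). Of 30 listed target mRNAs of TTP, Regnase-1 or Roquin, which include Zfp36 and Zc3h12a themselves, 22 reached a mean of 1 TPM, 20 reached 10 TPM and 13 reached 100 TPM. After Zfp36, the highest were Nfkbia, the NF-kB inhibitor, at 437 ± 81.1 TPM, the cytokine Tnf at 420 ± 145 TPM and the chemokines Cxcl2 at 257 ± 64.2, Ccl3 at 257 ± 56.3 and Ccl4 at 242 ± 71.3 TPM (SD, n = 3). The lowest was Csf3 at 0.04, 0.01 and 0 TPM. Zfp36 itself thus stood above every one of these mRNAs in mean TPM, although Tnf was higher in replicate 1, at 583 TPM against 534 TPM for Zfp36. Among the 28 targets besides the members, ATTTA was found in 27, TATTTAT in 23 and TTATTTATT in 14, in UTRs with a median of 651 bases.

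The targets differed more between libraries than the regulators did. The chi-square test with Benjamini-Hochberg adjustment called 26 of the 28 listed targets with enough counts to be tested, Zfp36 and Zc3h12a among them, beside 67.9% of all genes, and 23 of 28 reached a 1.5-fold ratio, beside 27.2% of all genes and 1 of 10 regulators. Coverage was unlike, since some of these targets had few counts, such as Cxcl3 with 9, 14 and 14 and Lif with 6, 21 and 6. Their ratios carry more counting error, while every regulator had 246 or more counts in each library. The tested targets were highest in replicate 1 in 21 of 28 cases. Tnf had 1680, 728 and 807 CPM in replicates 1, 2 and 3 and Nfkbia had 1335, 908 and 861 CPM. The median deviation of the list was 0.38, -0.25 and -0.10 on the log2 scale. Stromal markers were likewise high in replicate 1, and their part in this was not tested.

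The machinery that the regulators work with was present at moderate levels. Of 24 other binders of AU-rich elements and related proteins, 18 reached 1 TPM and 10 reached 10 TPM, led by Ybx1 at 204 ± 94.5 TPM, Pcbp2 at 167 ± 66.9 TPM and Hnrnpab, a relative of Hnrnpd, at 69.6 ± 22.4 TPM. Zfp36l3 and the neuronal Hu gene Elavl2 had 0 counts in every library, which allows up to 0.0595 CPM in the deepest and 0.128 CPM in the shallowest. A list of 19 genes held deadenylases and associated factors, among them the CCR4-NOT subunits that TTP and Roquin recruit. All 19 reached 1 TPM and 10 reached 10 TPM. They were led by the CCR4-NOT-associated Btg2 at 142 ± 5.80 TPM and Btg1 at 31.9 ± 6.26 TPM, with the catalytic subunit Cnot6l at 16.9 ± 5.74 TPM, and the lowest was Pan2 at 1.17 TPM.

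Decapping factors were lower, with 6 of 18 genes at 10 TPM or more. They were led by the helicase Ddx6 at 36.9 ± 8.38 TPM, Lsm14a at 29.9 ± 11.4 TPM and Lsm4 at 16.4 ± 4.0 TPM, and the lowest was Dcp1b at 1.87 TPM. The exosome and its cofactors had the fewest of these lists, with 1 of 16 genes at 10 TPM or more, Exosc10 at 10.4 ± 3.54 TPM. Wdr61 at 9.97 ± 3.41 TPM and Exosc9 at 9.33 ± 2.61 TPM followed. Exosc6 had 0 counts in every library, with the floor given above for Elavl2, and the cause of this was not tested. Of 15 genes listed for the p38-MK2 axis, the kinase pathway that phosphorylates TTP, 13 reached 10 TPM. The list holds phosphatase and 14-3-3 genes beside the kinases. It was led by the phosphatase Dusp1 at 233 ± 15.3 TPM and the 14-3-3 genes Ywhae at 98.0 ± 47.4 TPM and Ywhah at 93.2 ± 25.9 TPM. Those below 10 TPM were kinase genes, Map2k6 at 1.0 TPM and, lowest, the p38 gene Mapk11 at 0.277 TPM. The chi-square test with Benjamini-Hochberg adjustment called 13 of 19 tested other binders and 15 of 19 genes of the deadenylase list. It called 11 of 18 decapping genes, 11 of 15 exosome genes and 13 of 15 genes of the p38-MK2 axis. The share over all genes tested was 67.9%.

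**Figure D5:**
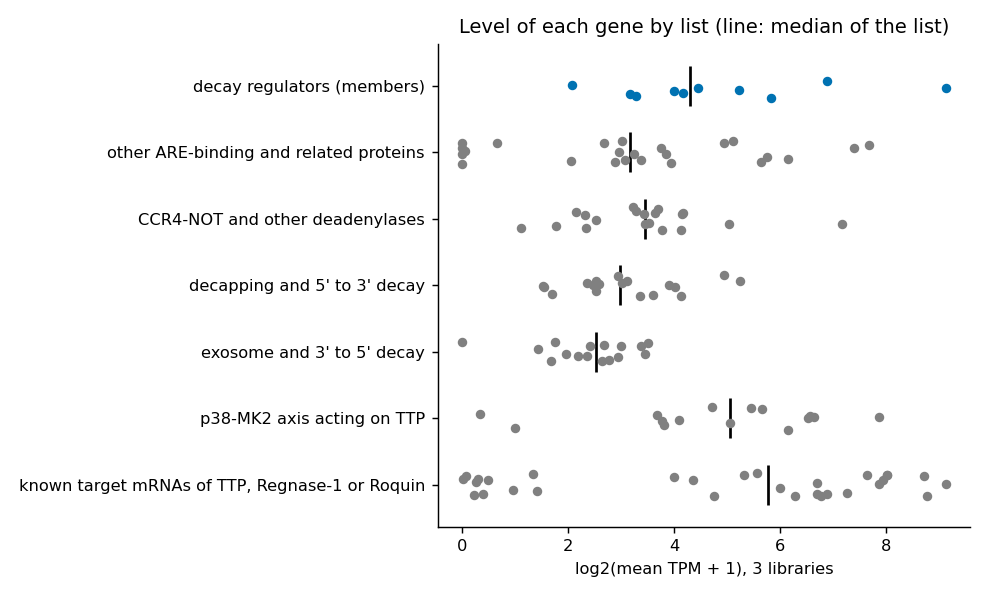
Level of every gene, log2(mean TPM + 1) over 3 libraries, for the decay regulators and 6 lists of related genes, 1 point per gene, with the median of each list as a line. Zfp36 is the highest of the regulators and, listed among its own targets, of that list too, and the exosome list has 1 of 16 genes above 10 TPM.

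Genes that overlap the members were assigned far fewer counts than the members themselves. The antisense gene Gm44710 over Zfp36 had 4, 6 and 9 counts. Gm26669, antisense to Zfp36l1, had 684, 306 and 100 counts against 12438, 31602 and 17785 for Zfp36l1, the largest overlapping count of any member in replicates 1, 2 and 3. The chemokine gene Ccl25 overlaps Elavl1 over 204 bases and had 40, 119 and 81 counts. Whether the counting used strand is not given in the sources used here, so reads of a gene and its antisense partner may not be told apart.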

How the data were processed

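Ribosome-depleted cytosolic RNA of 3 replicate libraries of 1 group was analysed. The authors deposited, per the file headers, a gene table and a transcript table with expected counts, TPM and the percent of each transcript within its gene, which together are the first table, and another transcript table with estimated counts and TPM, the second table. The deposited readme files name mm10 and GENCODE M21. For the aligner, the quantifier and the strand setting, the sources used here give no name. Rows that name no annotated gene (26345 of 81881) were left out.

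Expected counts deposited by the authors were rounded to whole numbers. Library sizes were scaled with TMM in edgeR 4.0.16 (R 4.3.3). Each gene with a mean count of 10 or more was tested for excess spread over counting error with a chi-square index, with Benjamini-Hochberg adjustment at 0.05 over all genes tested (scipy 1.17.1), and the code was tested on simulated data. Levels used log2(TPM + 1), and log2 CPM used a prior count of 0.5. Neighbours in the order of levels were tested by exact sign-flip permutation. A transcript was named at a mean share of 5% or more in either table. All members are named, and of each other list the 3 highest and the lowest gene by mean TPM, of the target list the 6 highest and the lowest, and of the marker lists the highest 2. Neat1, Cd4, Gm26669 and genes in the passages on introns and overlaps are named because a value turns on them. The 1.5-fold ratio and the whole-intron share were chosen after seeing the data. The members and lists were chosen with earlier results of these data known. Expression differences below counting error cannot be seen, and the floor of 3 counts covers counting error only. DESeq2 1.42.0 size factors, no count filter, a pseudocount of 0.1, the second table, rescaling to protein-coding genes and leaving out each replicate were the alternatives.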

Additional observations from a re-analysis of the deposited data

How the results depend on the processing

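Across the alternatives, 100 values that answer a comparison stayed on their side of the threshold or within the spread, 10 moved, and 2 differences in the order of levels changed sign. Of the other values, 32 stayed and 23 moved. Among those that moved was the mean TPM of each member, both after rescaling to protein-coding genes and in the second table. The count of members called was 10 with DESeq2 size factors (67.7% of all genes) and with no count filter (46.0%), 9 in the second table (72.7%) and 7 to 9 when 1 replicate was left out (33.4% to 56.7%). The count of members with a 1.5-fold ratio, 1 in all libraries, was 0 in the second table, without replicate 1 and without replicate 2. The difference Elavl1 minus Zc3h12a ran from -0.0296 without replicate 2 to 0.267 without replicate 1, and Rc3h2 minus Rc3h1 was -0.0208 in the second table, and these are the pairs that could not be put in order. The median level of 4.31 was 5.16 over members of 10 TPM or more, 6.17 after rescaling to protein-coding genes and 3.11 in the second table. Protein-coding genes held 22.3% to 34.4% of TPM in the first table and 5.91% to 21.4% in the second, and the part of this in the lower median of the second table was not tested. The Zfp36 share of its family was 73.0% by expected counts, which are not divided by length, and 74.2% in the second table. In the second table the leading transcripts held 97.9% for Zfp36l1-201, 89.9% for Zc3h12a-201, 75.2% for Rc3h1-202, 34.3% for Rc3h2-201, 92.6% for Khsrp-201 and 13.8% for Tia1-202, and the cause was not tested. The median deviation of the members in replicates 2 and 3 was 0.02 and -0.01 in the second table, the opposite sign of the values above although within their spread, so its direction is not settled there. No paired analysis was possible because there was 1 group.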

Other observations

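Other transcripts above the share of 5% were few. Zc3h12a-202, annotated as a retained intron, held 1.97% ± 1.27 of the Zc3h12a TPM in the first transcript table and 10.1% ± 6.70 in the second (SD, n = 3), and Khsrp-205 held 2.84% ± 1.24 and 7.01% ± 1.17. Tia1-204, also annotated as a retained intron, held 0%, 4.93% and 0% in replicates 1, 2 and 3 in the first table and 0%, 15.6% and 4.82% in the second. In the deadenylase list, Noct, the gene of nocturnin, had 30.5, 6.71 and 23.7 CPM in replicates 1, 2 and 3. This was a 4.55-fold ratio (adjusted p = 3.43e-145, chi-square test with Benjamini-Hochberg adjustment). Its order of libraries was that of Zfp36, Zfp36l2 and Zc3h12a. Btg2 had 698, 520 and 659 CPM, again in that order. Noct was singled out after its values were seen.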
